A study of Rattus norvegicus with 12 samples.

Results

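Retinoid metabolism genes were examined in rat ovary. The set holds 9 genes, Rbp4, Stra6, Adh1, Rdh10, Aldh1a1, Aldh1a2, Aldh1a3, Crabp2 and Cyp26b1, and all 9 names had a row among the 19730 genes of the deposited expression table. The set was chosen by the high levels of Adh1 and Aldh1a1 in the PCOS group, so the values of these 2 genes in PCOS libraries are described below without a test, and the tests concern the other genes and the comparison that uses no PCOS library. The ovaries came from 12 wild type female Sprague Dawley rats at post natal week 15, with 4 rats in each of 3 groups. The control group was untreated and ate standard food. The PCOS group, a model of polycystic ovary syndrome, had received the aromatase inhibitor letrozole by mouth at 1 mg/kg/day for 30 days together with a high-fat diet, so the drug and the diet cannot be told apart. The PCOS-MV group had received the same and then mogroside V (MV), a sweet glycoside of Siraitia grosvenorii fruit, by gavage at 600 mg/kg/day for another 30 days. Rats of both letrozole groups had been kept in the study only if their vaginal smears stayed in metestrus and diestrus, and the MV preparation was a partly purified extract. The cycle stage at collection was not given in the sources used here.

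Vitamin A circulates as retinol bound to a carrier and enters cells partly through a membrane receptor. Inside the cell, retinol is oxidised reversibly to retinal, retinal is oxidised irreversibly to retinoic acid, and retinoic acid is carried to nuclear receptors or broken down by cytochrome P450 enzymes. In the ovary, retinoic acid is best known for its part in germ cell entry into meiosis, and retinoid enzymes are also made by the somatic cells of the follicle. Of the 9 genes, Rbp4 encodes the plasma carrier of retinol and Stra6 its membrane receptor. Adh1 (an alcohol dehydrogenase) and Rdh10 (a retinol dehydrogenase) make retinal, and the Aldh1a enzymes make retinoic acid. Crabp2 binds retinoic acid in the cell and Cyp26b1 degrades it.

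The sequences just upstream of 5 of these genes are shown because their transcripts differed between the groups or because they encode the 3 enzymes of the same step. They are the 250 bases before the annotated start, taken from RefSeq on the GRCr8 assembly, 5′ to 3′ on the gene's strand. Of the 9 genes, 8 matched an entry, with Adh1 matching under its RefSeq symbol Adh1c, and Rdh10 was not matched. Capitals mark the letters CCAAT (or ATTGG, the same letters on the other strand), the octamer ATGCAAAT and the letters TATAAA.
Adh1, chr2:229470453-229470702, + strand: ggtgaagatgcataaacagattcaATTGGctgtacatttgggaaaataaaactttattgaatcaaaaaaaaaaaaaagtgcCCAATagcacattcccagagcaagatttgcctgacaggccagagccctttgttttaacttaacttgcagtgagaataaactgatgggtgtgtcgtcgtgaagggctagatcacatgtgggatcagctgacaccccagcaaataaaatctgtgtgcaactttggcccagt
Aldh1a1, chr1:227537370-227537619, + strand: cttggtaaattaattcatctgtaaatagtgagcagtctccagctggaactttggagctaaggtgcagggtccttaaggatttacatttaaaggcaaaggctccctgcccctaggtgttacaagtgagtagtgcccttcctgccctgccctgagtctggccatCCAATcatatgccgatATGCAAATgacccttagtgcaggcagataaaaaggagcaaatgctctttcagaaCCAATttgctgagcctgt
Aldh1a2, chr8:80758391-80758640, + strand: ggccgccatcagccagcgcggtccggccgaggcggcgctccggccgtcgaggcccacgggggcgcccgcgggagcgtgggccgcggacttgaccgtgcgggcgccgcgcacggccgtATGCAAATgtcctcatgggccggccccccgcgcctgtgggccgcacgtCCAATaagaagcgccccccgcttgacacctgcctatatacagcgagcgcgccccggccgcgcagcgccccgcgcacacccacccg
Aldh1a3, chr1:129427644-129427893, - strand: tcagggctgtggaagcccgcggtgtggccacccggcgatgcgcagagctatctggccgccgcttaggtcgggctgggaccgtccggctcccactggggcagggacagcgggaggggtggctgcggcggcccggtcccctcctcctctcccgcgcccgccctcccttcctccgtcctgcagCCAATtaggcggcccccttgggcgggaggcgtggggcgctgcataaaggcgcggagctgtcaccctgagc
Crabp2, chr2:175714612-175714861, + strand: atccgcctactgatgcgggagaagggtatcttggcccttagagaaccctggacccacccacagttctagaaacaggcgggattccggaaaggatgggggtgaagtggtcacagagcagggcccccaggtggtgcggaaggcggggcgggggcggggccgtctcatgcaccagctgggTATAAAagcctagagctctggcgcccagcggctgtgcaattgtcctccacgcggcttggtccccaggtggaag
The octamer was found in 2 of the 8 member sequences, those of Aldh1a1 and Aldh1a2, and in 1.56% of 33469 promoters of the same length. In Aldh1a1 it lay 65 to 72 bases before the start and in Aldh1a2 126 to 133 bases before it. CCAAT was found in 4 of the 8, those of Adh1 and the 3 Aldh1a genes, and in 34% of all promoters. TATAAA was found in 2, those of Rbp4 and Crabp2, and in 12.9% of all. The hexamer AGGTCA, the core of many nuclear receptor sites, was found in 0 of the 8 and in 14.1% of all. Both strands were searched, the 4 motifs do not overlap one another in these sequences, and they were chosen after the sequences were seen, so these matches are a description of letters only. Aldh1a1 and Aldh1a2, which share the octamer, did not share a pattern across the groups, as the values below show.

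Expression was given as FPKM, the number of fragments scaled by transcript length and by library size, so levels can be set beside each other between genes. Steps between low values placed the depth at an estimated 30200000 to 36900000 fragments per library, and 17576 to 18247 genes had a value above 0. Correlations of log2(FPKM + 1) between libraries of a group were 0.954 to 0.987 in control libraries, 0.986 to 0.989 in PCOS libraries and 0.977 to 0.989 in PCOS-MV libraries. Control replicate 3 stood apart: its summed markers of ciliated oviduct epithelium reached 35.2 FPKM, whereas the other 11 libraries were between 1.96 and 6.83 FPKM, and its Krt19, an epithelial keratin, was at 70.8 FPKM. Granulosa, theca, luteal and oocyte markers were all detected in the 3 groups. Differences between groups were tested with limma on log2(FPKM + 1) over the 13430 genes whose mean reached 1 FPKM, and those under 0.05 after Benjamini-Hochberg adjustment were called differentially expressed genes (DEGs). Log2 differences below are differences of mean log2(FPKM + 1), with the standard error (SE) of the fit.

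Between PCOS and control, 11.9% of all tested genes were called higher in PCOS and 15.6% lower. Of the 5 tested members other than Adh1 and Aldh1a1, 1 rose (Rdh10) and 2 fell (Aldh1a3 and Crabp2). After MV, 14.3% of all tested genes were called higher than in PCOS and 11.4% lower, and of the same 5 members 1 rose (Crabp2) and 1 fell (Rdh10). Between the PCOS-MV and control groups, 0.00745% of tested genes (1 gene) were higher and 0% lower, and 0 of 7 tested members were called by limma, 3 of them with an unadjusted p-value under 0.05. With so few members tested, nothing particular to the set is read from these counts. The first 2 comparisons share the 4 PCOS libraries and are not independent of each other. The libraries were made from whole ovary, so more or fewer cells of a type and more or less RNA per cell cannot be told apart in any of these differences.

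**Figure D1:**
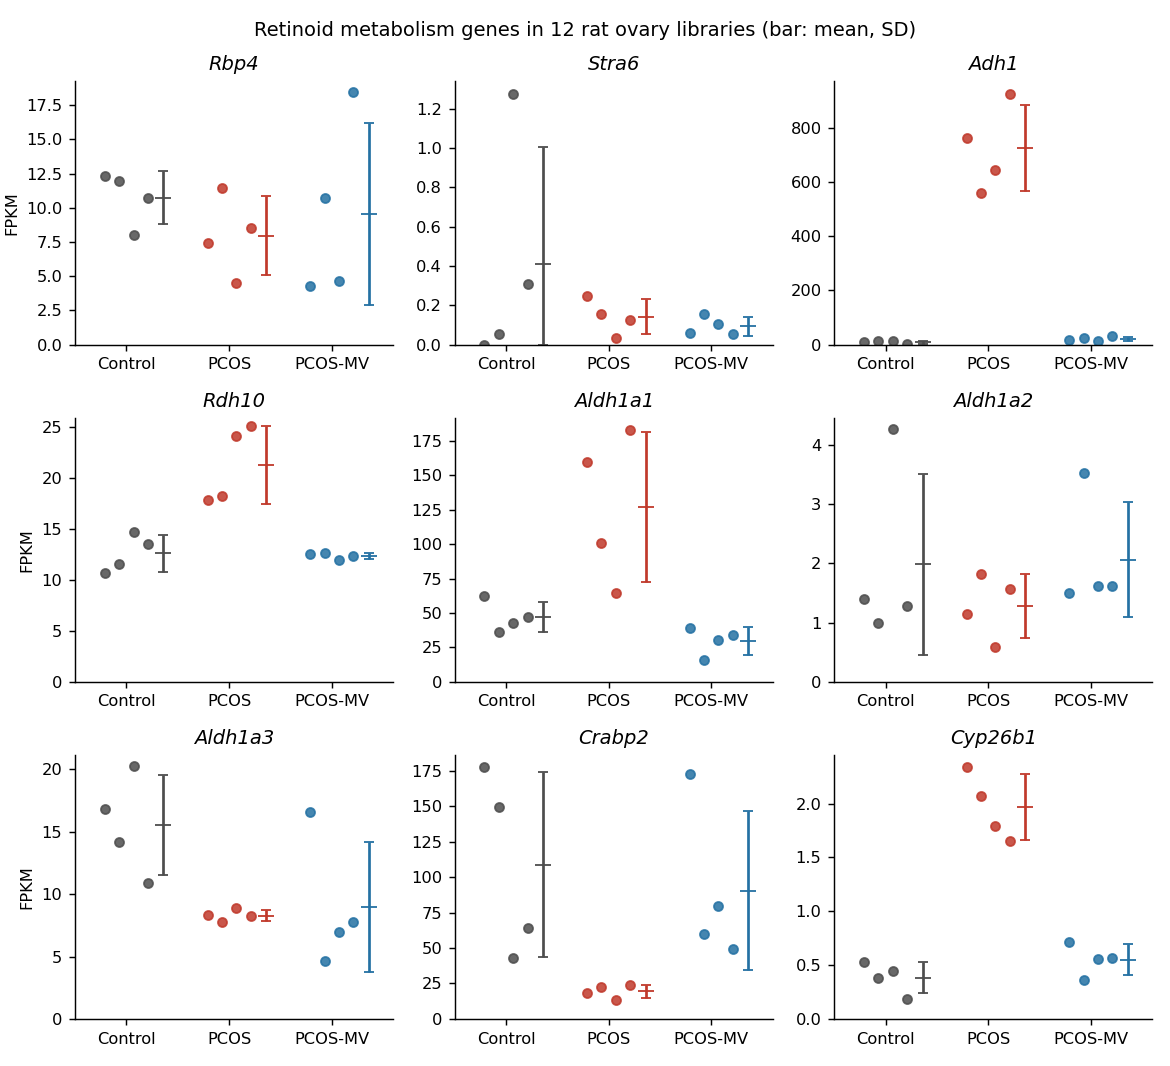
Level of each of the 9 genes in the 12 libraries. Each panel is a gene, the vertical axis is FPKM on a linear scale from 0, points are libraries (replicates 1 to 4 from left to right) and the bar beside them is the mean ± SD (n = 4; cut at 0 for Stra6 in the control group). Adh1, Rdh10, Aldh1a1 and Cyp26b1 are high in all 4 PCOS libraries, and Crabp2 is low in all 4.

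Neither gene of retinol supply passed the test in any comparison. Rbp4 lies at chr1:256806472-256813711 on the minus strand in the coordinates of the authors' file, whose build is not given in the sources used here. Its level was 12.3, 11.9, 8.04 and 10.7 FPKM in control replicates 1 to 4, 7.41, 11.5, 4.49 and 8.52 in the PCOS group and 4.27, 10.7, 4.68 and 18.5 in the PCOS-MV group. The groups overlapped, and PCOS-MV replicate 4 alone was above every control library. The log2 difference was -0.43 ± 0.24 (SE) between PCOS and control (limma adjusted p = 0.212) and 0.08 ± 0.43 between PCOS-MV and PCOS (adjusted p = 0.914). Stra6 (chr8:62925357-62944437, plus strand) was barely detected, at 0, 0.0535, 1.28 and 0.307 FPKM in the control group, 0.0325 to 0.249 in PCOS libraries and 0.0522 to 0.157 in PCOS-MV libraries. Only Control replicate 3, the library with the ciliated markers, exceeded 1 FPKM. With a mean of 0.215 FPKM over the 12 libraries Stra6 was under the filter, and the exact two-sided permutation p for PCOS against control was 0.6.

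Adh1 (ENSRNOG00000012436, chr2:243550627-243687857, plus strand, 3 transcripts) was the gene with the widest range in the set. It stood at 8.65, 13.4, 12.1 and 2.26 FPKM in control replicates 1 to 4. In the PCOS group it stood at 764, 561, 647 and 927 FPKM. In the PCOS-MV group it stood at 18.4, 24.6, 11.7 and 30.5 FPKM. Every PCOS library was far above every other library, and the lowest PCOS value was 41.8 times the highest control value. The mean was 9.12 ± 4.999 FPKM in the control group, 725 ± 159 in the PCOS group and 21.3 ± 8.08 in the PCOS-MV group (SD, n = 4 each), so that the PCOS mean was 79.5 times the control mean and 34.1 times the PCOS-MV mean. By mean level, Adh1 ranked 7162 of 19730 genes in the control group, 38 in the PCOS group and 3533 in the PCOS-MV group. These values are those by which the set was chosen.

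The comparison of PCOS-MV with control did not use those libraries. There the Adh1 mean was 2.33 times as high, and 3 of the 4 PCOS-MV libraries were above the highest control library. The log2 difference was 1.26 ± 0.49 (SE), with an unadjusted limma p of 0.0305 and an adjusted p of 0.559, and the exact permutation p was 0.0857, so the difference did not pass the test. The span of Adh1 in the file contains another alcohol dehydrogenase gene, Adh6a, and RefSeq lists a transcribed Adh1 pseudogene nearby. The library kit was not described as stranded, so fragments of these genes may be shared and the level of Adh1 is uncertain to that extent.

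Rdh10 (chr5:2603505-2632030, minus strand), the other retinol-oxidising gene, changed by a smaller amount in the same libraries. It was at 10.7, 11.6, 14.7 and 13.5 FPKM in the control group, 17.8, 18.2, 24.1 and 25.1 in the PCOS group and 12.5, 12.6, 11.98 and 12.3 in the PCOS-MV group. No PCOS library overlapped either other group, and the PCOS-MV libraries lay within the range of the control group. Rdh10 rose by 0.71 ± 0.14 (SE, log2) in the PCOS group compared with the control group, 1.69 times by the means (limma adjusted p = 0.00698). It fell by 0.72 on the log2 scale (SE 0.12) in the PCOS-MV group compared with the PCOS group (limma adjusted p = 0.00323). Between PCOS-MV and control the log2 difference was -0.02 ± 0.10 (limma adjusted p = 0.970). Of the summed FPKM of Adh1 and Rdh10, Rdh10 held 46.3% to 85.6% in the control libraries, 2.28% to 3.59% in the PCOS libraries and 28.8% to 50.6% in the PCOS-MV libraries, which restates the Adh1 values in another form.

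**Figure D2:**
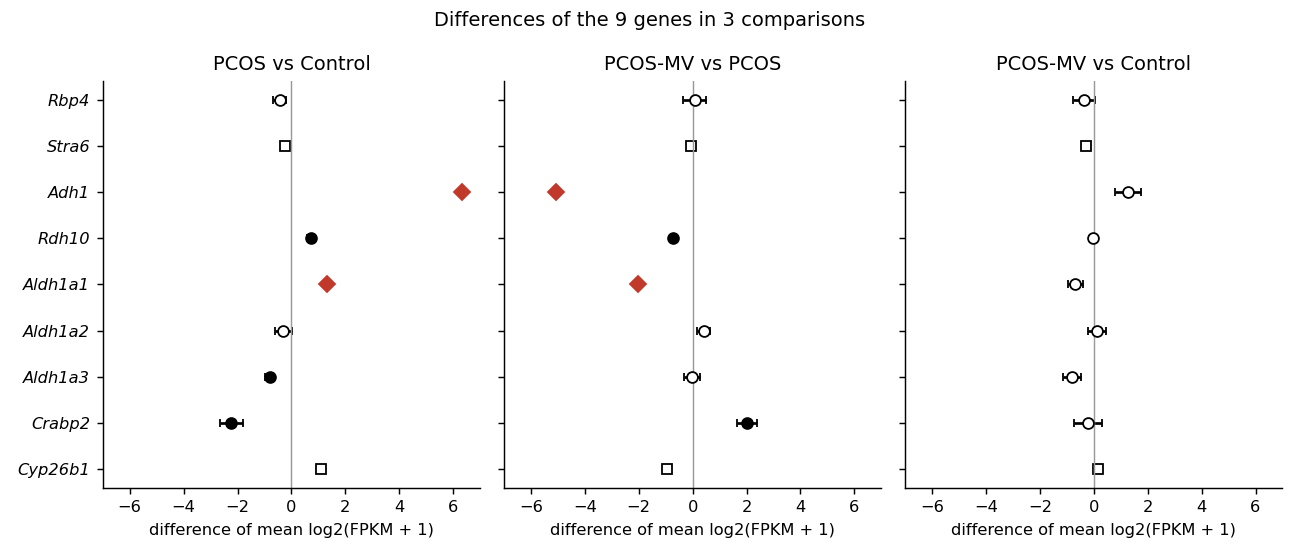
Difference of mean log2(FPKM + 1) for the 9 genes in the 3 comparisons (horizontal axis). Circles are genes tested with limma (filled: adjusted p under 0.05; bars: SE), squares are genes under the expression filter, and red diamonds are the values of Adh1 and Aldh1a1 that chose the set and were not tested. Rdh10 and Crabp2 are filled in both comparisons with the PCOS group and Aldh1a3 in the first, while no circle is filled between PCOS-MV and control.

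The 3 Aldh1a genes, which encode the enzymes that make retinoic acid, did not move together. Aldh1a1 (chr1:238222521-238264330, plus strand) was the most abundant of them in every library. It was at 62.4, 36.02, 42.6 and 47.2 FPKM in the control group and at 160, 101, 64.4 and 183 in the PCOS group. In the PCOS-MV group it was at 39.2, 15.5, 30.6 and 34.0 FPKM. The lowest PCOS library was just above the highest control library (64.4 against 62.4 FPKM), and 3 of the 4 PCOS libraries were well clear of it. The PCOS mean of 127 ± 54.3 FPKM was 2.70 times the control mean of 47.0 ± 11.2 and 4.26 times the PCOS-MV mean of 29.8 ± 10.2 (SD, n = 4 each), and these values too chose the set. Between PCOS-MV and control the log2 difference was -0.69 ± 0.28 (SE), with an unadjusted limma p of 0.0407, an adjusted p of 0.571 and an exact permutation p of 0.0571. Aldh1a7, a close paralog that may share reads with Aldh1a1, was at 1.76 ± 1.34 FPKM in the control group, 2.89 ± 0.605 in the PCOS group and 0.761 ± 0.563 in the PCOS-MV group. It fell between PCOS and PCOS-MV (log2 difference -1.18, limma adjusted p = 0.00512), while control and PCOS libraries overlapped and their difference was not called (log2 difference 0.60, adjusted p = 0.185).

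Aldh1a3 (chr1:127301128-127337882, minus strand) went the other way. It was at 16.9, 14.2, 20.3 and 10.9 FPKM in the control group and at 8.29, 7.77, 8.88 and 8.22 in the PCOS group. All 4 PCOS libraries lay in a narrow band below the lowest control library. Aldh1a3 fell by 0.80 on the log2 scale (SE 0.16) in the PCOS group (limma adjusted p = 0.00704), although with 1 model fitted to all 12 libraries the adjusted p was 0.0549. In the PCOS-MV group it was at 16.6, 4.67, 6.97 and 7.79 FPKM, so that replicate 1 was at a control level and the other 3 were below every control and near or below the PCOS band. Its log2 difference was -0.02 ± 0.29 (SE) between PCOS-MV and PCOS (limma adjusted p = 0.965) and -0.82 ± 0.33 between PCOS-MV and control (unadjusted p = 0.0372, adjusted p = 0.571). Whether the changes of Rdh10 or Crabp2 and that of Aldh1a3 under MV differ from each other was not tested.

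Aldh1a2 (chr8:77640222-77719489, plus strand) was scarce in all groups. It was at 1.40, 0.991, 4.26 and 1.28 FPKM in the control group, 1.14, 1.83, 0.595 and 1.56 in the PCOS group and 1.499, 3.53, 1.62 and 1.62 in the PCOS-MV group. Control replicate 3 and PCOS-MV replicate 2 were each high within their group, and the groups overlapped. No comparison was called (limma adjusted p = 0.516 for PCOS against control, 0.241 for PCOS-MV against PCOS and 0.934 for PCOS-MV against control), and without Control replicate 3 the first log2 difference turned from -0.30 to 0.01.

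The shares of the 3 Aldh1a genes in their summed FPKM are a description, since the PCOS shares and the PCOS sum rest largely on the high Aldh1a1 values that chose the set. Aldh1a1 supplied 63.4% to 79.5% of the summed Aldh1a FPKM in the control libraries, 87.2% to 94.9% in the PCOS libraries and 65.5% to 78.4% in the PCOS-MV libraries. The sum of the 3 genes was 64.6 ± 12.5 FPKM in the control group, 137 ± 54.4 in the PCOS group and 40.9 ± 13.8 in the PCOS-MV group (SD, n = 4 each). Without Aldh1a1, the sum of Aldh1a2 and Aldh1a3 was 17.5 ± 5.31 FPKM in the control group, 9.57 ± 0.156 in the PCOS group and 11.1 ± 4.70 in the PCOS-MV group. Most of this sum was Aldh1a3, tested above. The exact permutation p of the sum was 0.0286 for PCOS against control and 0.0857 for PCOS-MV against control. Between PCOS-MV and PCOS the sum did not pass the test. These p-values were not adjusted and are not among the 23 exact tests made on members.

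**Figure D3:**
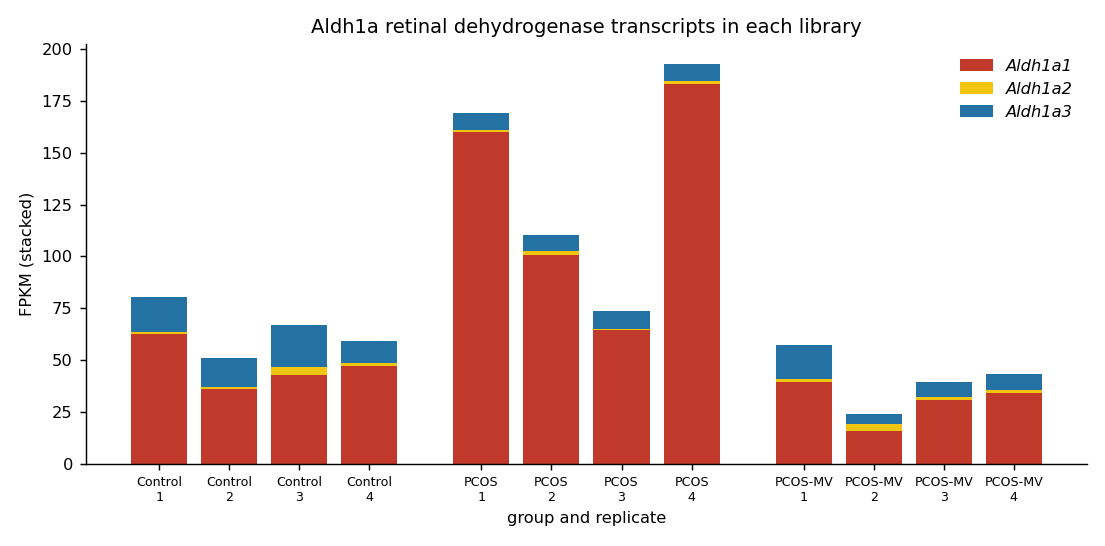
Stacked FPKM of Aldh1a1, Aldh1a2 and Aldh1a3 (vertical axis, linear from 0) in each of the 12 libraries (horizontal axis, group and replicate). Aldh1a1 is the largest share of every bar, from 63.4% in a control library to 94.9% in a PCOS library, and these shares, like the smaller Aldh1a3 shares of the PCOS bars, follow in part from the Aldh1a1 values that chose the set.

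Crabp2 (chr2:187322416-187326789, plus strand), the carrier that brings retinoic acid to its nuclear receptor, had the largest tested change of the set in either comparison with the PCOS group. It was at 178, 150, 42.8 and 64.0 FPKM in the control group, 17.9, 22.6, 13.5 and 23.7 in the PCOS group and 172, 60.2, 79.4 and 49.4 in the PCOS-MV group. Control and PCOS-MV libraries spanned the same range, and all 4 PCOS libraries were below both groups. Crabp2 fell by 2.23 on the log2 scale (SE 0.43) in the PCOS group compared with the control group (limma adjusted p = 0.00592), and the control mean was 5.59 times the PCOS mean. It rose by 2.02 ± 0.36 (SE, log2) in the PCOS-MV group compared with the PCOS group, 4.65 times by the means (limma adjusted p = 0.00511). Between PCOS-MV and control the log2 difference was -0.21 ± 0.53 (limma adjusted p = 0.919).

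Cyp26b1 (chr4:116261796-116278615, minus strand), which clears retinoic acid, was low but set the PCOS libraries apart, while the control and PCOS-MV libraries overlapped. It was at 0.529, 0.376, 0.445 and 0.186 FPKM in the control group, 2.34, 2.07, 1.80 and 1.65 in the PCOS group and 0.714, 0.364, 0.558 and 0.565 in the PCOS-MV group. Its transcript is long, so that these values correspond to an estimated 28 to 79 fragments in the control libraries, 247 to 339 in the PCOS libraries and 56 to 109 in the PCOS-MV libraries. All PCOS libraries were above all others, with a mean 5.12 times the control mean and 3.57 times the PCOS-MV mean. With a mean of 0.966 FPKM over the 12 libraries Cyp26b1 was just under the filter and had no limma test in the main fit. The exact permutation p was 0.0286 in both comparisons with the PCOS group, the smallest possible, and 0.0939 after adjustment over the 23 exact tests made on members. With the filter lowered to a mean of 0.1 FPKM, its limma adjusted p was 0.000333 between PCOS and control (log2 difference 1.10), where 10.4% of genes were called higher, and 0.000735 between PCOS-MV and PCOS (log2 difference -0.93), where 10.5% were called lower. Between PCOS-MV and control the log2 difference was 0.17, with an exact permutation p of 0.171. Rdh10 and Crabp2 also had an exact permutation p of 0.0286, and 0.0939 after adjustment, in both comparisons with the PCOS group. Aldh1a3 had these values between PCOS and control.

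Markers of several ovarian cell types moved with the groups. The summed level of 5 theca markers was 49.8 to 95.1 FPKM in the control libraries, 1580 to 3079 in the PCOS libraries and 29.8 to 130 in the PCOS-MV libraries. Insl3 and Cyp17a1, which mark androgen-making theca cells, carried this difference. The other 3 markers, hedgehog pathway genes of theca, did not share it. Ptch1 was at 15.1 to 18.2 FPKM in PCOS and 18.4 to 27.3 in control libraries. Hhip was at 2.21 to 3.43 and 2.995 to 5.78 FPKM, and Gli1 at 1.80 to 2.82 and 1.09 to 1.99, in the same order. Adh1, Aldh1a1, Rdh10 and Cyp26b1 were high in the same 4 PCOS libraries as the theca sum. The summed level of 8 granulosa markers was 656 to 915 FPKM in control libraries, 1097 to 1557 in PCOS libraries and 615 to 1124 in PCOS-MV libraries. Most of this sum was Inha, at 676 to 988 FPKM in PCOS and 388 to 540 in control libraries. Inhba, Fshr and Cyp19a1 were also higher in every PCOS library than in every control library. Amh, Foxl2, Nr5a2 and Hsd17b1 overlapped between PCOS and control. The summed level of 5 luteal markers was 1034 to 3680 FPKM in control libraries, 370 to 596 in PCOS libraries and 1648 to 5013 in PCOS-MV libraries, so that Crabp2 was low in the libraries in which this sum was low. Within the control group the order differed, since replicate 1 had the highest Crabp2 and the lowest luteal sum. The luteal sum was mostly Akr1c3, which like Ptgfr was lower in every PCOS library than in every other library. Prlr, at 94.4 to 123 FPKM in PCOS and 88.6 to 119 in control libraries, was not lower. Sfrp4 (2.415 to 25.1 against 2.705 to 9.74 FPKM) and Hsd17b7 (7.47 to 17.0 against 8.97 to 33.2) overlapped. The adipocyte marker sum was also low in the PCOS group, at 15.7 to 28.2 FPKM against 33.7 to 107 in control libraries and 18.4 to 48.2 in PCOS-MV libraries. Between PCOS and PCOS-MV only Fabp4 differed without overlap, at 1.28 to 2.87 and 3.63 to 33.8 FPKM. Adipoq, Plin1, Cidec, Lep and Cfd overlapped there. Endothelial markers were at 80.6 to 103 FPKM in control, 47.0 to 57.7 in PCOS and 68.4 to 95.6 in PCOS-MV libraries, and those of surface epithelium at 39.5 to 145, 117 to 207 and 61.3 to 123 FPKM. Of the surface epithelium markers only Lrrn4 was raised, at 113 to 190 FPKM in PCOS against 20.3 to 38.7 in control libraries. Upk1b was lower in every PCOS library (0.374 to 1.58 against 2.40 to 5.64 FPKM), and Upk3b, Msln, Krt19 and Krt7 overlapped. Sums for stroma, smooth muscle, leukocytes, oocytes and red blood cells overlapped between PCOS and control. Liver markers, examined because Rbp4 and Adh1 are abundant in liver, summed to 0.945 to 7.38 FPKM in all 12 libraries. No listed theca, granulosa, luteal or adipocyte marker was at 0 in all 4 libraries of a group, and the part of these cell types in the member differences was not tested.

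**Figure D4:**
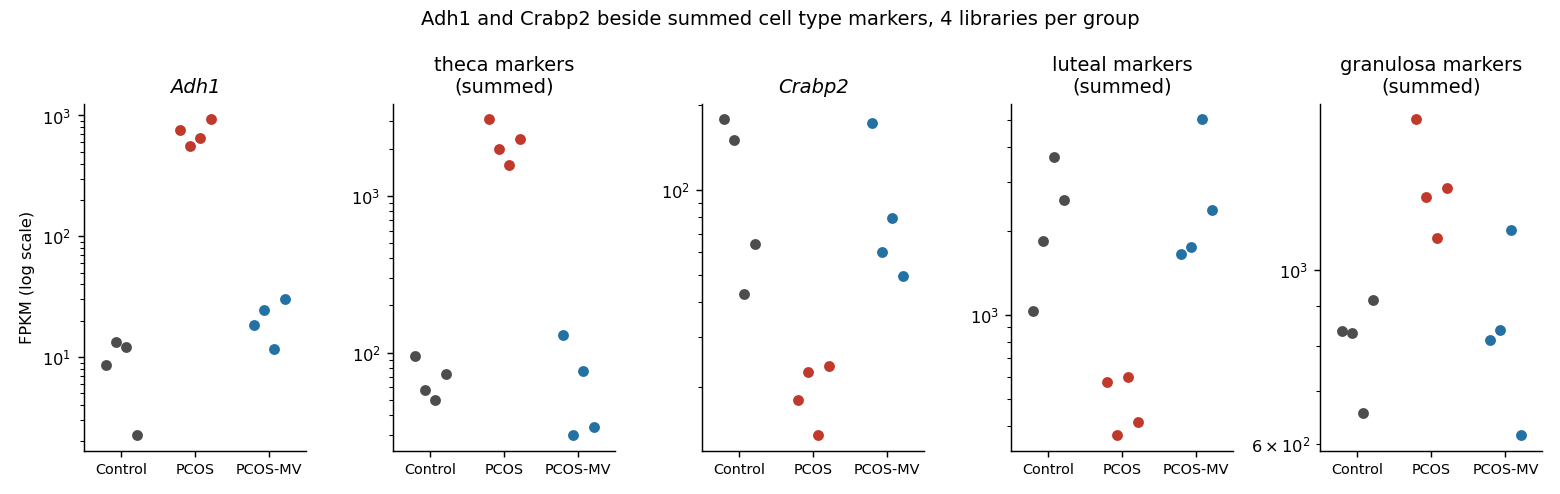
Adh1 and Crabp2 beside the summed markers of theca, luteal and granulosa cells. The vertical axes are FPKM on log scales, and each point is a library (replicates 1 to 4 from left to right in each group, n = 4). Adh1 and the theca sum, carried by Insl3 and Cyp17a1, are high in the 4 PCOS libraries. Crabp2 and the luteal sum, mostly Akr1c3, are low in them.

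Genes with profiles most like those of Adh1 and Aldh1a1 were sought among the tested genes. Genes without a symbol or with a clone or LOC name were left out. The measure was the root mean square difference of centred log2(FPKM + 1) over the 12 libraries, which is a description and no test. The nearest 5 genes are given for each. For Adh1, whose own spread about its mean was 2.80, they were RGD1564463 (difference 1.02), Ass1 (1.09), Slc7a11 (1.10), Ccl11 (1.19) and Ddc (1.19). Ass1, an enzyme of arginine synthesis, was at 22.4 ± 8.198 FPKM in the control group, 817 ± 97.8 in the PCOS group and 16.3 ± 7.31 in the PCOS-MV group (SD, n = 4 each). For Aldh1a1, with a spread of 0.961, they were Mfsd2a (0.385), Psmb9 (0.395), Cst8 (0.414), Chst1 (0.420) and Myh7 (0.440). Psmb9, a subunit of the immunoproteasome, was at 16.8 ± 3.20, 49.1 ± 11.7 and 12.1 ± 3.12 FPKM in the 3 groups in the same order. No gene was in both lists of 5.

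The rest of the retinoid pathway was taken from a list of 58 other genes, of which 51 had a row and 32 passed the filter. Compared with the control group, 7 of the 32 rose in the PCOS group and 8 fell, which is 21.9% and 25.0% beside 11.9% and 15.6% of all tested genes. The median log2 difference was -0.09 in the list and -0.03 over all genes, and the median size of the difference was 0.37 and 0.22. Compared with the PCOS group, 5 of the 32 rose in the PCOS-MV group and 6 fell, 15.6% and 18.8% beside 14.3% and 11.4% of all tested genes. Here the median log2 difference was 0.0045 in the list and 0.03 over all genes, and its median size was 0.26 and 0.21. Between PCOS-MV and control, 0 of 32 were called by limma, with 1 gene (Lpl) at an unadjusted p under 0.05. Without 1 library the number that rose in the PCOS group was 4 to 7 and the number that fell 5 to 8, with 4 rises when Control replicate 1 or 2 or PCOS replicate 1 or 4 was left out and 5 falls when PCOS replicate 2 or 3 was. In the PCOS-MV group the number that rose was 3 to 6, with 3 when PCOS replicate 1, 2 or 3 or PCOS-MV replicate 2 or 4 was left out.

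Genes of retinyl ester storage and release were lower in the PCOS group or did not pass the test. Of 5 tested, 3 fell: Lpl, lipoprotein lipase, from 15.7 ± 4.17 to 6.86 ± 1.05 FPKM (limma adjusted p = 0.00348), Lipe, hormone-sensitive lipase, from 15.6 ± 4.34 to 9.88 ± 1.53 (adjusted p = 0.0491) and Pnpla2, adipose triglyceride lipase, from 18.7 ± 2.47 to 14.4 ± 1.41 (adjusted p = 0.0396). The calls of Lipe and Pnpla2 between PCOS and control were each lost in 6 of the 8 fits that left out a library. Of all tested genes 15.6% were called lower in PCOS, and with 5 genes nothing particular to them is read from the count. These 3 lipases act mainly on triglycerides. The adipocyte marker sum was also lower in every PCOS library than in every control library. In the PCOS-MV libraries that sum was 18.4 to 48.2 FPKM, with Lpl at 7.14 to 12.9, Lipe at 15.0 to 19.7 and Pnpla2 at 16.0 to 18.35 FPKM. The part of adipocytes in these levels was not tested. Lrat, the enzyme that esterifies retinol, was at 3.68 ± 1.24 FPKM in the control group and 2.84 ± 1.48 in the PCOS group (adjusted p = 0.433). In the PCOS-MV group Lipe rose again to 17.6 ± 2.07 FPKM (adjusted p = 0.00278) and Dgat1, an acyltransferase, rose from 12.4 ± 1.36 to 18.8 ± 2.91 (adjusted p = 0.0116).

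For carotenoid handling, Bco2, a carotene-cleaving enzyme, rose from 11.8 ± 4.64 to 24.9 ± 5.96 FPKM in the PCOS group (limma adjusted p = 0.0173). Scarb1, a lipoprotein receptor that also supplies cholesterol for steroid synthesis, fell from 1420 ± 609 to 537 ± 168 FPKM (adjusted p = 0.0188, and 0.0519 without Control replicate 2 and 0.0530 without PCOS replicate 3). Neither passed the test between PCOS-MV and PCOS (adjusted p = 0.162 and 0.340). Lrp2, an endocytic receptor, was at 0.0841 to 0.532 FPKM in the 8 PCOS and PCOS-MV libraries and at 8.70 FPKM in Control replicate 3.

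Among 8 tested enzymes that interconvert retinol and retinal, 2 rose and 3 fell in the PCOS group. Of all tested genes, 11.9% were called higher there and 15.6% lower. With 8 genes, nothing particular to these enzymes is read from the counts. Dhrs3, which reduces retinal back to retinol, rose from 42.5 ± 6.18 to 71.9 ± 7.30 FPKM (limma adjusted p = 0.00168) and fell to 45.1 ± 9.38 in the PCOS-MV group (adjusted p = 0.00878). Adh5, a dehydrogenase better known for formaldehyde clearance, rose from 35.2 ± 2.51 to 45.9 ± 0.622 FPKM (adjusted p = 0.00382). Rdh11 fell from 18.3 ± 1.48 to 13.2 ± 1.36 FPKM, Rdh13 from 2.98 ± 0.210 to 2.07 ± 0.136 and Dhrs9 from 1.51 ± 0.448 to 0.401 ± 0.0492 (limma adjusted p = 0.00704, 0.0143 and 0.00390). Of these 3, Dhrs9 rose in the PCOS-MV group, to 1.58 ± 0.360 FPKM (adjusted p = 0.00125). Thus of the retinol oxidising and retinal reducing genes, Adh1, Rdh10, Adh5 and Dhrs3 were high in the PCOS libraries and Rdh11, Rdh13 and Dhrs9 were low. Of the 8 tested enzymes of the wider list, 3 were not called between PCOS and control.

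Fabp5, a lipid carrier that also binds retinoic acid, was, like Crabp2, lowest in the PCOS group. It fell from 8.85 ± 2.74 to 4.47 ± 0.886 FPKM in the PCOS group (limma adjusted p = 0.0172) and rose to 12.6 ± 5.99 in the PCOS-MV group (adjusted p = 0.0232), the second call being lost in 5 of the 8 fits that left out a library and the first without PCOS replicate 2 (adjusted p = 0.0504). Crabp1, Cyp26a1 and Cyp26c1 were under the filter, with group means of at most 0.152 FPKM.

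**Figure D5:**
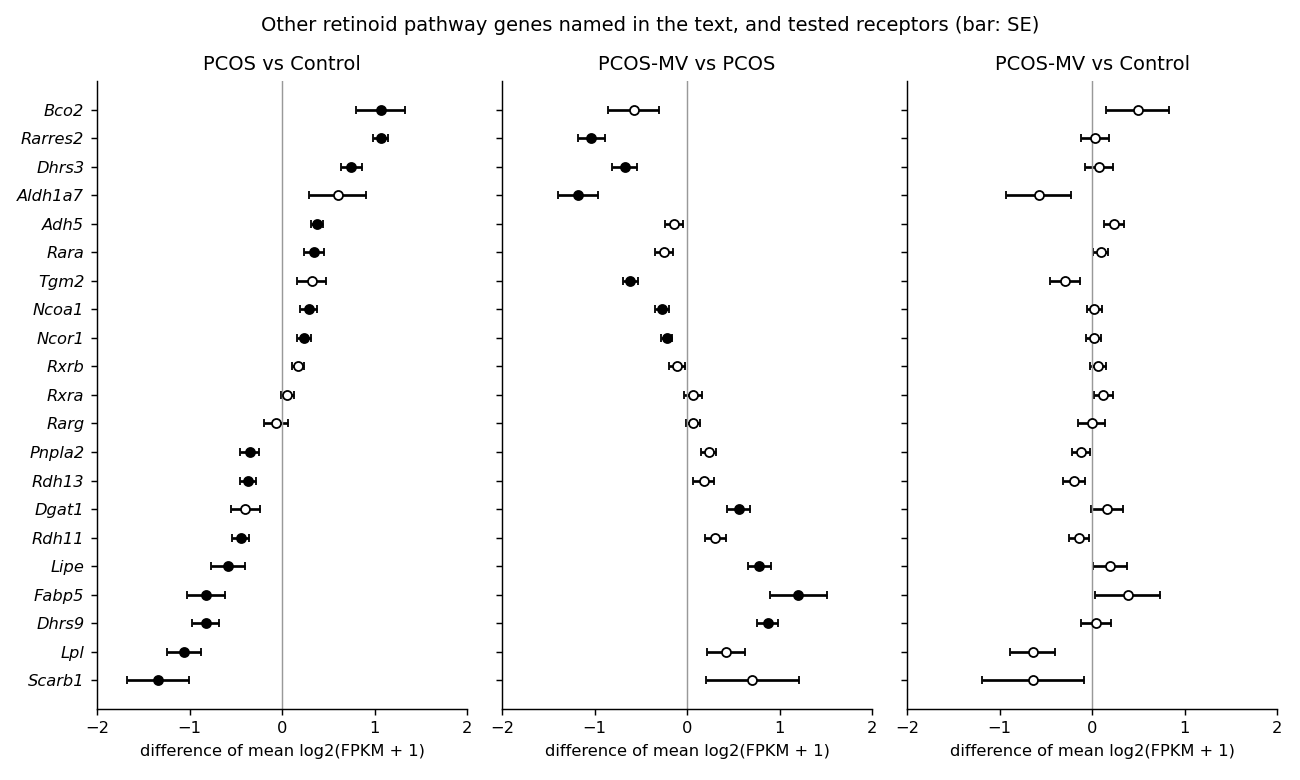
Difference of mean log2(FPKM + 1) (horizontal axis) of the other retinoid pathway genes that are named above or below with a call in at least 1 comparison and of the tested retinoic acid and retinoid X receptors, in the order of their difference between PCOS and control. Filled circles have a limma adjusted p under 0.05 and bars are the SE; no circle is filled between PCOS-MV and control.

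Receptors changed by small amounts. Rara, the alpha receptor of retinoic acid, rose from 19.5 ± 1.75 to 25.1 ± 3.54 FPKM in the PCOS group (log2 difference 0.34, limma adjusted p = 0.0481) and was at 20.8 ± 0.849 in the PCOS-MV group (adjusted p = 0.103 against PCOS). Rarg, Rxra and Rxrb did not pass the test in any comparison, with means of 8.19 to 8.75, 23.5 to 25.7 and 11.8 to 13.5 FPKM. Rarb and Rxrg were under the filter, Rarb at 0.163 to 0.488 FPKM in the 12 libraries and Rxrg at 0.331 ± 0.130 FPKM in the control group, 0.985 ± 0.243 in the PCOS group and 0.402 ± 0.235 in the PCOS-MV group. Ncor1, a corepressor, and Ncoa1, a coactivator, both rose slightly in the PCOS group (log2 differences 0.24 and 0.29, limma adjusted p = 0.0496 and 0.0457) and fell in the PCOS-MV group (-0.22 and -0.27, adjusted p = 0.0269 and 0.0334). These calls near the threshold were lost in 5 to 7 of the 8 fits that left out a library.

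Most of the tested genes known to respond to retinoic acid were not called between PCOS and control, and those called rose. Of all tested genes, 11.9% were called higher in PCOS than in control and 15.6% lower. With 6 retinoic acid response genes tested, nothing particular to them is read from the counts. By limma 0 of the 6 fell in the PCOS group and 2 rose, with no other at an unadjusted p under 0.05. These were Dhrs3, given above, and Rarres2, which encodes the adipokine chemerin and rose from 20.04 ± 1.26 to 43.0 ± 3.27 FPKM (limma adjusted p = 4.38e-05). In the PCOS-MV group Rarres2 fell to 20.8 ± 4.69 FPKM (adjusted p = 0.00172). Tgm2, a transglutaminase, was at 74.6 ± 19.9 FPKM in the control group and 91.3 ± 3.46 in the PCOS group (adjusted p = 0.161) and fell to 59.5 ± 5.20 in the PCOS-MV group (adjusted p = 0.00103). Rarres1 was at 6.79 ± 4.27, 3.53 ± 0.509 and 7.17 ± 3.10 FPKM in the 3 groups and did not pass the test (adjusted p = 0.143 and 0.0578).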

How the data were processed

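Ovarian RNA of 12 rats, 1 library per rat, was sequenced as 150 bp read pairs, and the libraries were assigned to groups and replicates by title and treatment in the labels. By the study's methods, reads were filtered, aligned with HISAT2 v2.0.5 and counted per gene with featureCounts, and the authors deposited FPKM computed from these counts and gene lengths. The submitters' processing notes name STAR 2.5.1b and HTSeq 0.6.0 instead, and the genome build is not given in the sources used here. The methods give 3 replicates per condition for the authors' own test, while 4 libraries per group were analysed. The deposited columns of the authors' own log2 fold changes and p-values and of group means were not used.

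The 26928 transcript lines were reduced to 19730 genes. A test on read counts could not be made, since the values are FPKM. The test was limma 3.58.1 (lmFit and eBayes with trend, R 4.3.3) on log2(FPKM + 1), 4 libraries against 4, over the 13430 genes whose mean reached 1 FPKM, and p-values were adjusted over all of them by the Benjamini-Hochberg method. These fold changes understate changes of low genes. Single members, and the sum of Aldh1a2 and Aldh1a3, were tested, too, by exact two-sided permutation, which cannot give less than 0.0286. The script was tested on simulated data. Depth was estimated from the step in FPKM times length among genes with 1 transcript (34.4% to 41.8% of values between 20 and 45 lay within 0.05 of the step), so fragment numbers are estimates and cover counting error only.

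The members and lists were chosen with earlier results of these data known. The named genes were the 9 members, every wider-list gene called in at least 1 comparison and the 6 retinoic acid and retinoid X receptors. For Adh1 and Aldh1a1 they also included the 5 tested genes of nearest profile that had a gene symbol. 1 gene of the wider list, counted with the list, is not reported here by itself. Lrat, Lrp2, Rarres1, Crabp1, Cyp26a1, Cyp26c1 and the markers named singly were added after their values were seen, as were the motifs. Sequences were taken from RefSeq (GRCr8), never joined to the file's coordinates. Alternatives were the pseudocount (0.1), the filter (a mean of 0.1 FPKM, or none), 1 model for 12 libraries, the replicate number as a block, median-ratio scaling, a least change of 1 (log2) and each library left out. Tables and plots were made with Python 3.11.15, pandas 2.3.3 and matplotlib 3.10.9.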

Additional observations from a re-analysis of the deposited data

Results flagged for a closer look

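In 33 genes and 3 groups, 99 sets of 4 values were searched for 1 library standing apart, and 7 were found where chance gives about 1 in 20, or 4.95. Aldh1a2 was high in Control replicate 3, at 4.262 FPKM against 0.991 to 1.40 in the other control libraries. It was also high in PCOS-MV replicate 2, at 3.526 FPKM against 1.499 to 1.62. Dhrs9 (2.176 FPKM against 1.24 to 1.35) and Tgm2 (104.3 FPKM against 63.0 to 67.8) were high in Control replicate 3 too, the library with the raised ciliated epithelium markers, whose part in these values was not tested. Rdh13 was low in Control replicate 4, at 2.666 FPKM against 3.05 to 3.11. Dhrs3 was high in PCOS-MV replicate 3, at 59.11 FPKM against 39.6 to 41.2, and Ncor1 in PCOS-MV replicate 4, at 30.83 FPKM against 28.3 to 28.6.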

How the results depend on the processing

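Of the members, Rdh10 and Crabp2 kept direction and call in both comparisons with the PCOS group, and Aldh1a3 against control, when any 1 library was left out (log2 differences 0.625 to 0.783 and -0.80 to -0.64 for Rdh10, -2.59 to -1.92 and 1.65 to 2.25 for Crabp2, and -0.95 to -0.67 for Aldh1a3). With 1 model for 12 libraries the members that fell in PCOS numbered 1, since Aldh1a3 was lost. With a filter at a mean of 0.1 FPKM or no filter, 2 members rose in PCOS and 2 fell in PCOS-MV, since Cyp26b1 entered the test. With a least change of 1 (log2), 0 members rose and 1 fell in PCOS, and 0 fell in PCOS-MV. In the wider list that threshold left 2 rises and 2 falls in PCOS, and 1 rise and 2 falls in PCOS-MV. The cause of the other changes was not tested.

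With the replicate block, 4 genes of the wider list rose in PCOS instead of 7 and 6 fell instead of 8, and 4 fell in PCOS-MV instead of 6, while no member call changed. The calls lost between PCOS and control were those of Rara (limma adjusted p = 0.101), Ncor1 (0.0983), Ncoa1 (0.101), Lipe (0.0740), Rdh13 (0.0681) and Fabp5 (0.0501), and those lost between PCOS-MV and PCOS were Ncor1 (0.0619) and Ncoa1 (0.0614). The labels tie the numbers to no shared animal, batch or day. Correlations of the deviations of same-numbered libraries from their group means were -0.033 to 0.024 for PCOS and control and -0.053 to 0.216 for PCOS-MV and control. For PCOS-MV and PCOS they were 0.101, 0.172, 0.136 and 0.035 for replicates 1 to 4, and replicates 1 to 3, but not 4, correlated best with their own number. The study's methods name no pairing, so the main fit used no block. Whether the numbers of the PCOS-MV and PCOS libraries mark a shared batch was not tested. Over all genes the block gave 2905, 3079 and 0 DEGs in the 3 comparisons in place of 3684, 3448 and 1.

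When 1 library was left out, the rises of the wider list in PCOS numbered 4 to 7 and the falls 5 to 8, and the rises in PCOS-MV 3 to 6. Differences that did not pass the test and changed sign in some of these fits were those of Stra6 (-0.363 to 0.0331) and Aldh1a2 (-0.459 to 0.00804) and Rarg (-0.169 to 0.0463) between PCOS and control, Rbp4 (-0.29 to 0.34), Aldh1a3 (-0.34 to 0.21) and Rxra (-0.0210 to 0.123) between PCOS-MV and PCOS, and Rdh10 (-0.0875 to 0.0551), Aldh1a2 (-0.0945 to 0.420) and Crabp2 (-0.58 to 0.10) between PCOS-MV and control. With 4 libraries per group, genes under 1 FPKM are limited by low counts, and nothing said that rats were housed or processed apart, so p-values measure only the spread between these libraries.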
